A study of Mus musculus with 36 samples.

Results

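The 18 libraries described here are mammary glands that received Matrigel and no tumor cells, out of 36 libraries in the series. They were chosen by their labels alone: all 9 BALB/c and all 9 C57BL/6 Matrigel glands, with 3 libraries per strain at weeks 1, 3 and 6 after the injection, so that each week holds 6 glands. The study compared tumors grown from cells placed in the milk ducts, and these glands were its controls at each time point. The other 18 libraries are 4T1 tumors in BALB/c mice and Py230 tumors in C57BL/6 mice at the same weeks.

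All 18 glands share one treatment and one reproductive state. Females were mated when 8 weeks old, their pups were removed 10 days after birth, and 1 h later the third mammary gland was injected through the teat with Matrigel, a basement membrane extract, in PBS. None of the 18 glands carries a labelled transgene or deletion. The study kept both wild-type C57BL/6 mice and an albino luciferase reporter line on that background, and the labels do not say which of them gave the C57BL/6 glands. There is no gland from before weaning and none without Matrigel, so time since weaning, time since injection and age cannot be told apart.

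A lactating gland that loses its pups involutes. Milk stays in the alveoli, the secretory cells stop making milk and die or are cleared, signalling through STAT3 switches on acute phase and lysosomal genes, and proteases and phagocytes remodel the tissue while fat cells fill the space again. The ducts that remain respond to ovarian hormones once more. A comparison of later glands with week 1 glands therefore asks which genes still move after the first week, when much of this process is already over.

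Each value is a score. Within a library the scores of all 21650 genes average 0, with an SD of 1, so a score tells how far a gene lies above or below the average gene of its own library on a log-like scale. Across genes, 1 score unit corresponded to a 7.27-fold difference in the authors' mean normalized count (slope of 2.86 on the log2 scale, r = 0.990), and the folds given below are approximate conversions with this slope. Depth is unknown, because the scores keep no counts. Differences between weeks were fitted with limma over the 18 glands with strain as a covariate, and a gene was called at a Benjamini-Hochberg adjusted p under 0.05 over all genes.

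The glands carried the transcripts their label requires. Adipoq, the adipocyte hormone adiponectin, scored between 1.79 and 2.52 in every gland, Krt8, a luminal keratin, between 1.31 and 1.88, and Krt14, a basal keratin, between 0.95 and 1.61. Other tissues came along with some glands. Genes of brown fat were high in 3 glands, with the list mean at 0.54 in BALB/c week 1 replicate 2, 0.38 in BALB/c week 3 replicate 2 and -0.07 in C57BL/6 week 1 replicate 2, against -0.65 to -0.25 in the other 15. Genes of keratinocytes and hair follicles were high in BALB/c week 6 replicate 2 (1.02), C57BL/6 week 6 replicate 3 (0.18) and C57BL/6 week 3 replicate 3 (-0.27), against -1.35 to -0.68 elsewhere. Skeletal muscle genes ran from -0.75 to 2.29 and were lowest in replicate 3 of week 1 in both strains.

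Antibody genes set the C57BL/6 glands apart in another way. Each B cell clone uses its own variable segments, so that the mix of segments tends to differ between mice. Over 190 immunoglobulin variable segments, after the mean of the strain was removed, the 3 C57BL/6 glands of week 6 correlated at 0.912 to 0.915 with each other, the 3 of week 3 at 0.785 to 0.856, and replicates 1 and 2 of week 1 at 0.788. Pairs of BALB/c glands from the same week gave -0.46 to 0.47, and C57BL/6 glands from different weeks -0.63 to -0.18. The labels do not say which glands came from which mouse, and whether these C57BL/6 libraries share an animal was not tested. The p-values measure the spread between these libraries, and if libraries share an animal that spread is too small. A fit without 1 library would then still hold other libraries of the same animal. The main counts of called genes are therefore also given with such glands averaged, which leaves 13 samples. Of the gene lists described below, only milk proteins (2 genes) and the STAT3 and acute phase list (2 genes) kept any call at week 6 with glands averaged.

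**Figure D1:**
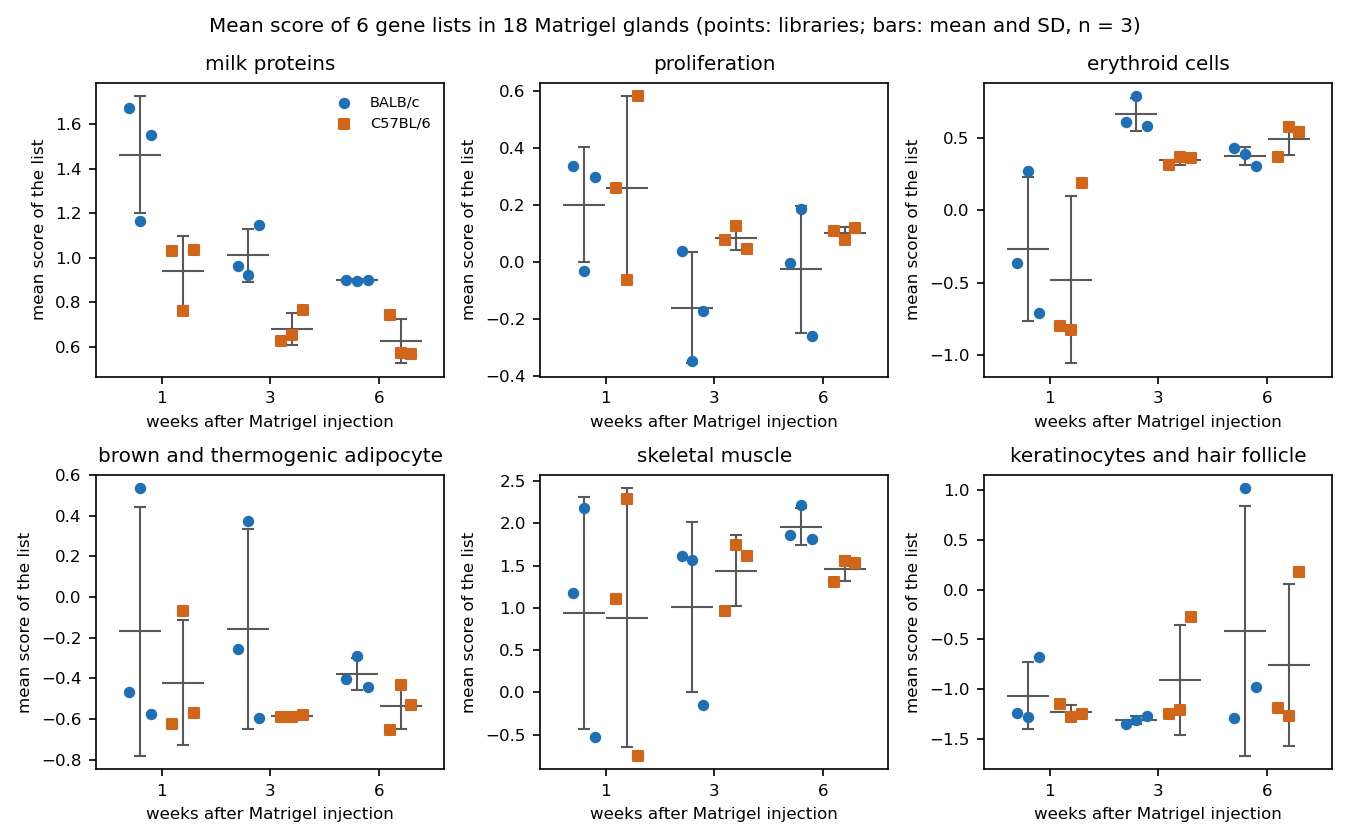
Mean score of 6 gene lists (y axis, score units) in each Matrigel gland at weeks 1, 3 and 6 after injection (x axis). Circles are BALB/c and squares C57BL/6 libraries, and bars give the mean and SD of 3 libraries. Milk protein genes lay between 0.76 and 1.67 at week 1 and between 0.57 and 0.90 at week 6, while the brown fat, muscle and keratinocyte lists vary between single glands of a group.

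At week 6, 378 of 21650 genes (1.75%) differed from week 1, of which 236 were higher (1.09%) and 142 lower (0.656%). The changes were small. Their median size was 0.18 score units, and 26 of the 378 exceeded 0.5. In 161 of them the 6 glands of week 6 did not overlap the 6 of week 1, which holds for 1.26% of all genes. Averaging the glands that share antibody segments left 15 calls, all among the 378, and all 378 kept their direction. These 15 were Saa1, Wap, Saa2, Csn2, Chrdl2, Erfe and Isyna1 among the lower genes and Ints6l, Galnt15, Tmem158, Ttc6, Nxf7, Chrm1, Lsamp and Gm266 among the higher ones. Without the 3 glands rich in brown fat genes, 2547 genes were called, 926 higher and 1621 lower, and 370 of the 378 remained among them. Counts of list members from that fit, given below, stand beside these 1621 lower genes of 21650 and not beside the 142 of the main fit. Those from the main fit stand beside its 1.09% higher and 0.656% lower genes. The fit without brown fat leaves out replicate 2 of week 1 in both strains. Where these glands were low in a list, leaving them out raises the week 1 mean and so enlarges the fall. Without the 3 glands rich in keratinocyte genes 75 were called, 74 of them among the 378. What part the admixed tissues have in these counts was not tested.

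Milk protein genes had the lowest median difference of the lists. Of 15 measured milk protein genes, 6 fell at week 6, none rose and 9 did not pass, with a median difference of -0.43 against -0.01 over all genes. With glands averaged by antibody segments 2 of the 15 fell. Without the 3 glands rich in brown fat genes 11 did, and without the 3 rich in keratinocyte genes 3 did. Wap, whey acidic protein of rodent milk, scored 0.63, -0.25 and 0.58 in the 3 BALB/c glands of week 1 and -1.06, -1.17 and -1.07 in those of week 6. In C57BL/6 it scored -0.31, -0.75 and -0.17 at week 1 and -1.36 ± 0.12 (SD, n = 3) at week 6. Every gland of week 6 lay below every gland of week 1. The week 3 glands ran from -1.20 to -0.74 and just met the lowest gland of week 1. Wap fell by 1.19 ± 0.14 (SE) score units, about 10.5-fold, with a limma adjusted p of 0.00114.

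Csn2, which encodes beta-casein, ranged from 1.49 to 2.84 at week 1 with a median of 2.17. At week 3 it ranged from 1.21 to 2.00 and at week 6 from 1.19 to 1.58, with a median of 1.39. The lowest week 1 gland, C57BL/6 replicate 2, overlapped the week 6 glands, so the groups are not fully separate. Csn2 fell by 0.84 ± 0.13 units, about 5.31-fold (limma adjusted p = 0.0046). Lalba, alpha-lactalbumin, the partner of the lactose-making enzyme, fell by 0.58 ± 0.09 units (limma adjusted p = 0.00471) from a range of 1.05 to 1.68 to one of 0.29 to 1.10. Lao1, an amino acid oxidase secreted into mouse milk, fell by 0.95 ± 0.12 units and Cel, the bile salt-stimulated lipase of milk, by 0.55 ± 0.10. The calls of Wap, Csn2, Lalba, Lao1 and Cel at week 6 held when any 1 library was left out. The call of the sixth gene, Csn1s2b, a further casein (-0.49 ± 0.12, limma adjusted p = 0.0483), was lost in 16 of 18 such fits.

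The caseins did not fall alike. Csn1s1, which encodes an alpha casein and lies beside Csn2 on chromosome 5, scored 1.95 to 3.05 at week 1 and 2.14 to 2.43 at week 6, a difference of -0.20 ± 0.11 with a limma adjusted p of 0.392. Csn3, kappa casein, gave -0.22 ± 0.10 (limma adjusted p = 0.302). Both stayed among the most abundant transcripts of the 6-week gland. Milk genes of both kinds are classical targets of prolactin acting through STAT5, whose binding motif is TTCNNNGAA, which reads the same on both strands. The promoters of Csn2, which fell, and Csn1s1, which did not pass, are shown for comparison from 250 bases before to 50 bases after the gene start (RefSeq, GRCm38.p6, written along the strand of each gene), with the motif in capitals.
Csn2, chr5:87699376-87699675, minus strand: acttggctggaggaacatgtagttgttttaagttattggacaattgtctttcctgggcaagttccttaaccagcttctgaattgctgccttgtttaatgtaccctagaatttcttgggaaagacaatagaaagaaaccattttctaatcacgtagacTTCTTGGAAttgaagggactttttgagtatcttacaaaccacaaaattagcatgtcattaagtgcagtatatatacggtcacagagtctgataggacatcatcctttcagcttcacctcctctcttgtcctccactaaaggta
Csn1s1, chr5:87665958-87666257, plus strand: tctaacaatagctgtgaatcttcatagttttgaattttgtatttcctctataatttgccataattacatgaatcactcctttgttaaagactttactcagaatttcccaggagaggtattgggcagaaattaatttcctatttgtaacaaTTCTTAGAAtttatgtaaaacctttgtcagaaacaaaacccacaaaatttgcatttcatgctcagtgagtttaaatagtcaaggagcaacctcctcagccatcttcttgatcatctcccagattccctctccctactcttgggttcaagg
Counted from the gene start, the motif begins at position -93 in Csn2 and at position -100 in Csn1s1. It is found in 8.30% of all 32851 promoters of this length, and the promoter windows of Wap, Lalba, Lao1 and Cel do not hold these letters. That of Csn1s2b was not analysed here. A gene that fell and one that was not called both carry it, at nearly the same place.

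The wider secretory program moved little. Of 21 measured genes, 2 fell, 1 rose and 18 did not pass, with a median of -0.06. Olah, which ends fatty acid chains early to make the medium-length fats of milk, fell by 0.53 ± 0.08 units (limma adjusted p = 0.00466), and its 6 glands of week 6 (-1.43 to -1.18) lay below all glands of week 1 (-1.17 to -0.22). Folr1, a folate receptor, fell by 0.32 ± 0.07, a call lost in 8 of 18 fits without 1 library. Elf5, the transcription factor of alveolar cells, and Stat5a did not pass, with differences of -0.19 and 0.01. The gene that rose was Prlr, the prolactin receptor, described with the epithelial genes.

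**Figure D2:**
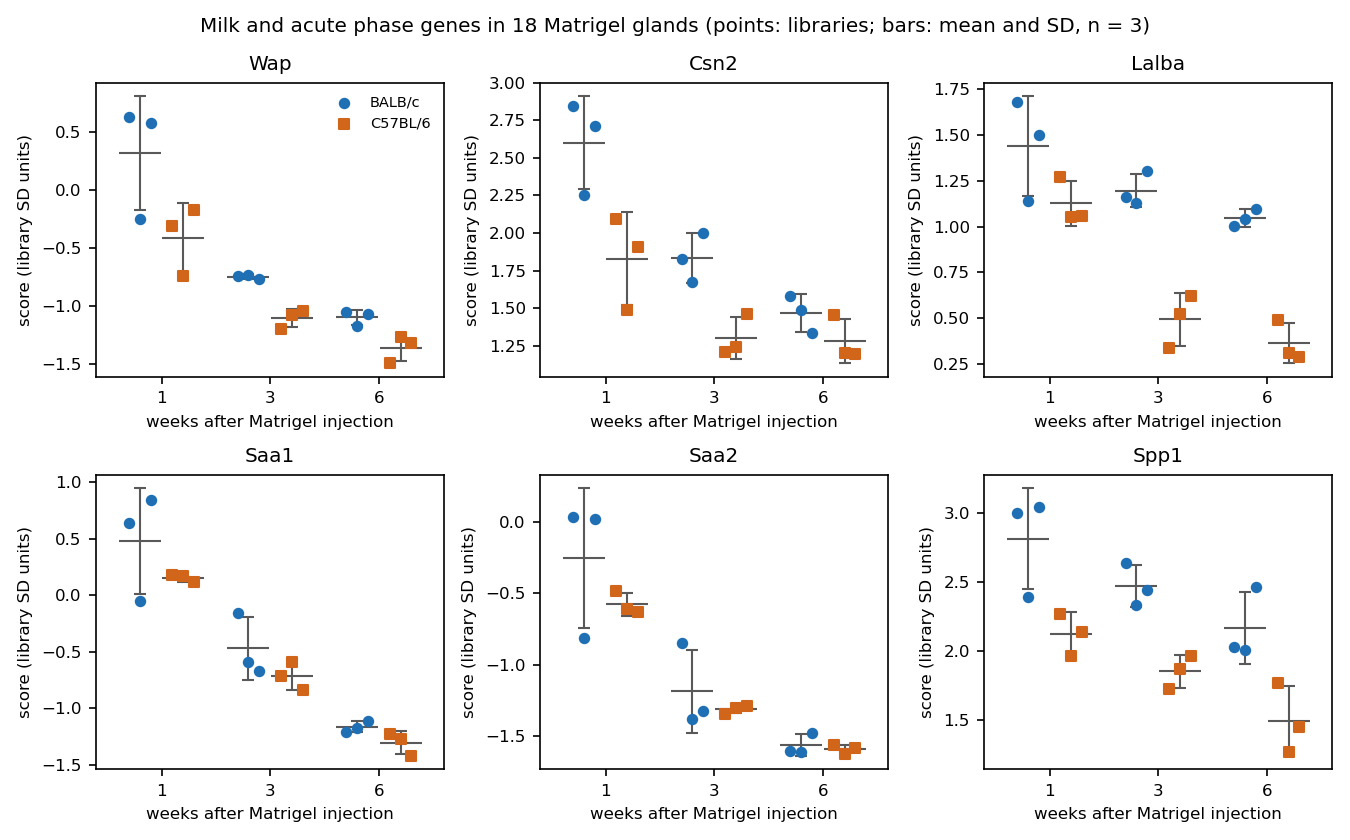
Score (y axis, SD units of the library) of 3 milk and 3 acute phase or STAT3-related genes in each Matrigel gland at weeks 1, 3 and 6 after injection (x axis). Circles are BALB/c and squares C57BL/6 libraries, and bars give the mean and SD of 3 libraries. Wap, Saa1 and Saa2 at week 6 lie below all week 1 glands, while Csn2, Lalba and Spp1 overlap.

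Serum amyloid A showed the largest fall of all called genes. Saa1 scored 0.64, -0.05 and 0.84 in BALB/c and 0.18, 0.17 and 0.11 in C57BL/6 at week 1. At week 3 the 6 glands ranged from -0.84 to -0.15, and at week 6 from -1.42 to -1.11, so that neither later week overlapped week 1. Saa1 fell by 0.91 ± 0.12 units at week 3 (limma adjusted p = 0.00733). At week 6 it fell by 1.55 ± 0.12 units, about 21.6-fold (limma adjusted p = 1.05e-05). Saa2 fell by 0.83 ± 0.12 and 1.16 ± 0.12 units at the same weeks. Both encode acute phase apolipoproteins, and since they are near-identical neighbours on chromosome 7 the authors' counting may have split reads between them, so that their separate values are uncertain.

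Of 25 measured genes of the STAT3 and acute phase list, these 2 and Spp1 fell at week 6 and the other 22 did not pass (list median -0.05). Spp1, osteopontin, fell by 0.64 ± 0.12 units (limma adjusted p = 0.0108), from a range of 1.96 to 3.05 to one of 1.27 to 2.47. Saa3, the form made in epithelium and macrophages, ranged from -0.83 to 0.70 at week 1 and from -1.19 to -0.62 at week 6 and did not pass (-0.73 ± 0.23, limma adjusted p = 0.117). Stat3 itself gave -0.04, Igfbp5, an early involution gene, -0.05, and Lcn2, lipocalin, -0.21, none of which passed. Without the 3 glands rich in brown fat genes 11 of the 25 fell, and without the 3 rich in keratinocyte genes 2 did.

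Some genes for protein folding in the endoplasmic reticulum fell at week 6. This list and the other 4 marked so in the plot of list changes were chosen after the values were seen, so their counts describe and support nothing. Of 22 measured genes, 6 fell, beside 0.656% of all genes (Manf, Creld2, Hspa5, Dnajb9, Dnajb11 and Selenos), none rose and the differences of all 22 were below 0, with a median of -0.10. Hspa5, the chaperone BiP, ranged from 1.97 to 2.27 at week 1 with a median of 2.12, and from 1.88 to 1.98 at week 6 with a median of 1.94. The ranges touched only at the lowest week 1 gland, and Hspa5 fell by 0.18 ± 0.04 units, about 1.43-fold (limma adjusted p = 0.0148). Creld2, a secretory folding factor, fell by 0.20 ± 0.04 and Manf, a secreted stress factor, by 0.20 ± 0.04. Dnajb9, a BiP co-chaperone, scored 0.97 to 1.04 at week 1 and 0.83 to 0.88 at week 6 with no overlap, and fell by 0.14 ± 0.02 (limma adjusted p = 0.0046). The calls of Dnajb11 and Selenos were lost in 8 and 3 of the 18 fits without 1 library. Those of the other 4 were lost in none, but no gene of this list passed with glands averaged by antibody segments and 1 did without the 3 glands rich in keratinocyte genes. With the 3 glands rich in brown fat genes left out, 15 of the 22 fell.

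Hspa5 and Creld2 carry the textbook endoplasmic reticulum stress response element, CCAAT and CCACG with 9 bases between them, in their promoters, shown in the same window and from the same source as above with the element in capitals, since few promoters hold it.
Hspa5, chr2:34771840-34772139, plus strand: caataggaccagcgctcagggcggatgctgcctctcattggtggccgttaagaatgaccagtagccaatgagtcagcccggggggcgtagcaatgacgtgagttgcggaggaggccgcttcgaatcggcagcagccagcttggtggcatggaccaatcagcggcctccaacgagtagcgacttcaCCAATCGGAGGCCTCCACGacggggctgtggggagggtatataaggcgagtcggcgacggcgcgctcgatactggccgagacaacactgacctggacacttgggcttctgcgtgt
Creld2, chr15:88819396-88819695, plus strand: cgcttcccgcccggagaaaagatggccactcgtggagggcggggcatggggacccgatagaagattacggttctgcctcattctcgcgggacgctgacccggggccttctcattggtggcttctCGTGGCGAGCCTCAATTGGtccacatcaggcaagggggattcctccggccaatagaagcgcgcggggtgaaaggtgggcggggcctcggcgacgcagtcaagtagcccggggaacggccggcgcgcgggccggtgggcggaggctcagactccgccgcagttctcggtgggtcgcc
In Hspa5 the element lies on the printed strand and begins at position -65 from the gene start. In Creld2 it lies on the opposite strand, and its first printed base is at position -126. On either strand it was found in 0.119% of the 32851 promoters. The windows of Dnajb9, Dnajb11 and Selenos do not hold these letters, and that of Manf was not analysed here. A match describes the sequence and was not tested as a binding site.

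Cytosolic heat shock chaperones moved less uniformly. Of 17 measured genes, also chosen after the values were seen, 4 fell, beside 0.656% of all genes, and none rose, with a median of -0.08. Without the 3 glands rich in keratinocyte genes 1 fell, and with glands averaged by antibody segments 0 were called. Hsph1, of the Hsp110 family, fell by 0.24 ± 0.05 units (limma adjusted p = 0.0172), a call lost without C57BL/6 week 1 replicate 1. Dnaja1, a co-chaperone of Hsp70, scored 0.97 to 1.03 at week 1 and 0.86 to 0.93 at week 6 with no overlap and fell by 0.11 ± 0.02 (limma adjusted p = 0.00436). Hsp90aa1 and Hspa8 fell by 0.12 ± 0.03 and 0.11 ± 0.02, calls lost in 9 and 4 of 18 fits without 1 library. Hspa1a, the form of Hsp70 that heat induces most, gave 0.03 ± 0.07 and did not pass. Cirbp, an RNA-binding protein known for induction by mild cold, went the other way. It ranged from 0.65 to 0.81 at week 1 and from 0.83 to 1.09 at week 6, with no overlap, and rose by 0.25 ± 0.05 units, about 1.65-fold (limma adjusted p = 0.014).

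**Figure D3:**
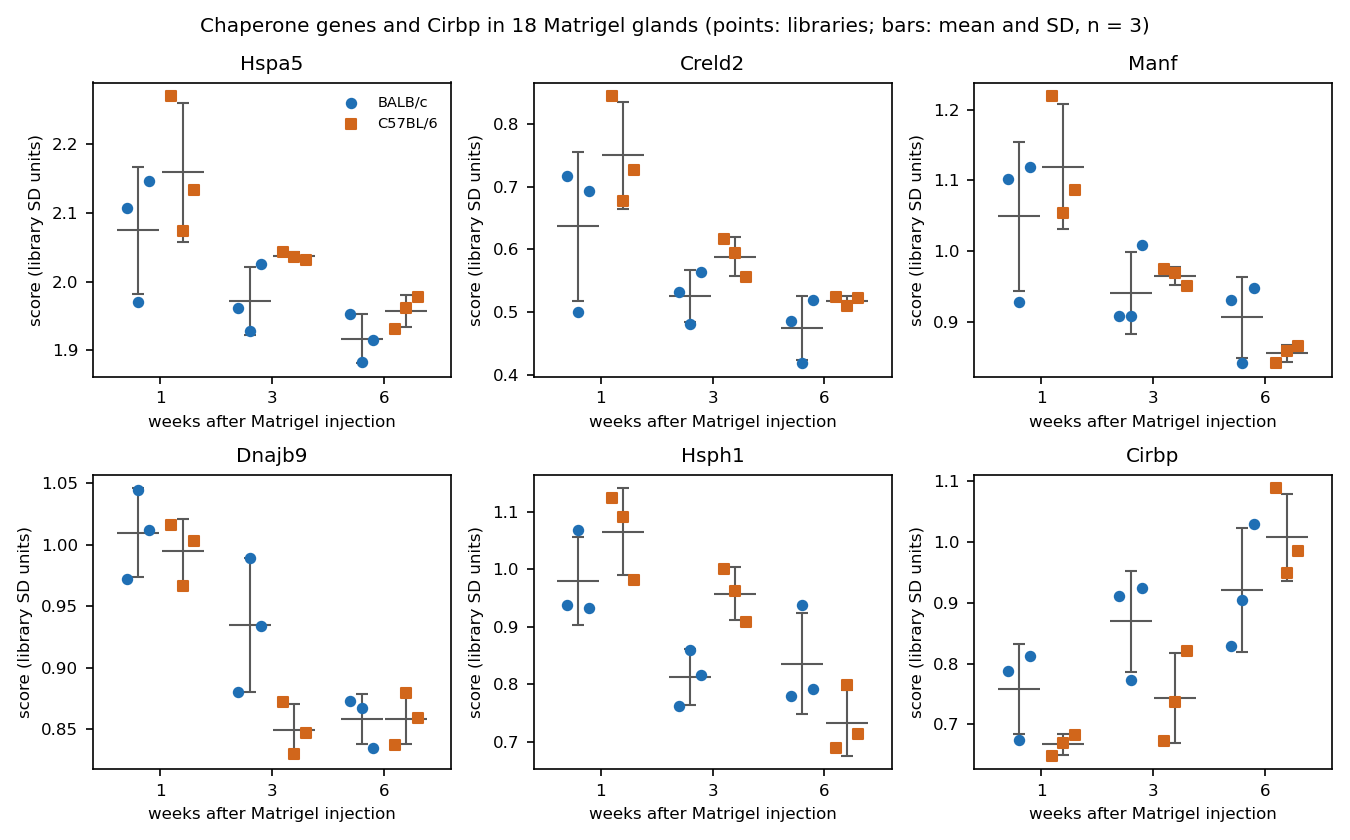
Score (y axis, SD units of the library) of 4 chaperone or folding genes of the endoplasmic reticulum, Hsph1 and Cirbp in each Matrigel gland at weeks 1, 3 and 6 after injection (x axis). Circles are BALB/c and squares C57BL/6 libraries, and bars give the mean and SD of 3 libraries. Hspa5, Creld2, Manf, Dnajb9 and Hsph1 fell by 0.14 to 0.24 units at week 6 and Cirbp rose by 0.25.

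Further genes of nuclear RNA rose by small amounts. In the list of nuclear RNA processing, also chosen after the values were seen, 9 of 16 genes rose, beside 1.09% of all genes, none fell and the median was 0.10. With glands averaged by antibody segments 0 of the 16 were called, and without the 3 glands rich in keratinocyte genes 1 was. Neat1, the long noncoding RNA of paraspeckles, rose by 0.20 ± 0.04 units, a call lost after cyclic loess normalization and in 4 of 18 fits without 1 library.

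The other clear falls among genes in the upper part of the expression range were small. By the rule for named genes, which asks for no overlap with week 1, Isyna1, the enzyme that begins inositol synthesis, fell by 0.24 ± 0.03 units (limma adjusted p = 0.00301), from a range of 0.84 to 1.06 to one of 0.66 to 0.75. Banp, a nuclear matrix protein, fell by 0.21 ± 0.03, Smox, spermine oxidase, by 0.18 ± 0.03, Lactb, a mitochondrial protein, by 0.14 ± 0.03 and Rhob, a small GTPase, by 0.11 ± 0.02. None of these 5 calls was lost in a fit without 1 library, but only that of Isyna1 held with glands averaged by antibody segments. Lrrc59, a protein of the endoplasmic reticulum membrane, Tmem104, Bak1, a pore-forming protein of apoptosis, and Cyth1 fell by 0.11 to 0.15, calls lost in 3, 6, 7 and 8 of 18 such fits.

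Of the 20 measured proteases and inhibitors of remodelling, 1 fell at week 6 and none rose (median -0.17). It was Ctsk, the collagen-degrading cathepsin K, which scored 1.09 to 1.93 at week 1 and 0.94 to 1.25 at week 6 and fell by 0.48 ± 0.10 (limma adjusted p = 0.0252), a call lost in 8 of 18 fits without 1 library. Of 24 lysosomal genes, chosen after the values were seen, 3 fell, beside 0.656% of all genes. They were Ctsk, Lipa, the acid lipase (-0.32 ± 0.07), and Atp6v0a2, a proton pump subunit (-0.12), and the list median was -0.07. In the list of 21 genes of interstitial matrix none was called. When the 3 glands rich in brown fat genes were left out, 10 of the 20 proteases and inhibitors, 13 of the 24 lysosomal genes and 6 of the 21 matrix genes fell. No gene of these lists was called without the 3 glands rich in keratinocyte genes, or with glands averaged by antibody segments. Of 15 basement membrane genes, Lamb2, a laminin chain, rose by 0.12 ± 0.03 (limma adjusted p = 0.0426). This call was lost in 12 of 18 fits without 1 library.

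Among epithelial genes a receptor of a hormone and one of growth factors rose. Prlr scored 1.82, 1.80 and 1.70 in BALB/c and 1.52, 1.51 and 1.75 in C57BL/6 at week 1, and 1.89, 2.02 and 2.16 and 2.23, 1.97 and 2.09 in the same order at week 6. No gland of week 6 overlapped week 1, and Prlr rose by 0.38 ± 0.08 units, about 2.11-fold (limma adjusted p = 0.0188). This call was lost without C57BL/6 replicate 1 of week 1 or of week 6. Erbb4, a receptor of neuregulins, rose by 0.25 ± 0.05 (limma adjusted p = 0.0104). Of the 12 measured genes of the hormone response list 1 rose, 11 had differences above 0 and the median was 0.21. The gene that rose was again Prlr, which is also in the list of the secretory program. Pgr, the progesterone receptor, ranged from 0.13 to 0.70 at week 1 and from 0.49 to 1.24 at week 6 without passing (0.38 ± 0.16, limma adjusted p = 0.25). Esr1, the estrogen receptor, gave 0.12 ± 0.04 and did not pass.

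Of 18 luminal markers 1 rose and 16 had differences above 0, with a median of 0.11. The gene was Prom1, which marks hormone-sensing luminal cells, with a rise of 0.42 ± 0.09 (limma adjusted p = 0.0202) that was lost without BALB/c week 1 replicate 1, C57BL/6 week 6 replicate 1 or C57BL/6 week 6 replicate 3. Krt8 gave -0.04 ± 0.09. Of 12 basal markers none was called, with a median of 0.08. In bulk tissue, fewer cells of a type and less RNA per cell cannot be told apart, so these values do not say whether cell numbers or levels per cell differed.

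Several secreted factors and surface proteins rose. Penk encodes proenkephalin, a precursor of opioid peptides. Penk ranged from 0.14 to 0.71 at week 1, from 0.85 to 1.08 at week 3 and from 0.89 to 1.32 at week 6. Both later weeks lay above every week 1 gland, and the rise at week 6 was 0.62 ± 0.09 units, about 3.43-fold (limma adjusted p = 0.00301), while at week 3 it did not pass (0.46 ± 0.09, limma adjusted p = 0.066). Ptn, the growth factor pleiotrophin, rose by 0.53 ± 0.11 (limma adjusted p = 0.0181), lost without C57BL/6 week 6 replicate 1, and Stc2, the secreted glycoprotein stanniocalcin, by 0.47 ± 0.10, lost in 4 of 18 such fits. Lgr6, a receptor of Wnt-enhancing R-spondins and a marker of progenitor cells in skin and gland, rose by 0.40 ± 0.07 (limma adjusted p = 0.00576) and did not overlap between the weeks. Tmem158 rose by 0.36 ± 0.05 and Tspan1, a tetraspanin of epithelia, by 0.34 ± 0.05, both without overlap. Neither call was lost in any fit without 1 library. With glands averaged by antibody segments Tmem158 kept its call, while Penk, Ptn, Stc2, Lgr6 and Tspan1 did not.

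A few genes of Wnt and hedgehog signalling rose. Axin2, a feedback inhibitor of Wnt signalling, scored 0.00 to 0.29 at week 1 and 0.33 to 0.49 at week 6 without overlap. It rose by 0.20 ± 0.04 units (limma adjusted p = 0.0148) and did not pass with glands averaged by antibody segments. In the hedgehog list, chosen after the values were seen, 3 of 12 measured genes rose, beside 1.09% of all genes, and none fell (median 0.10). With glands averaged by antibody segments, or without the 3 glands rich in keratinocyte genes, 0 were called. Ptch1, a receptor and also a target of the pathway, rose by 0.15 ± 0.03, and Cdon, a co-receptor, by 0.20 ± 0.04. The call of Cdon was lost in 7 of 18 fits without 1 library and that of Ptch1 in none. Gli1, the transcription factor most used as a readout, gave 0.27 ± 0.07 and missed the threshold (limma adjusted p = 0.059).

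**Figure D4:**
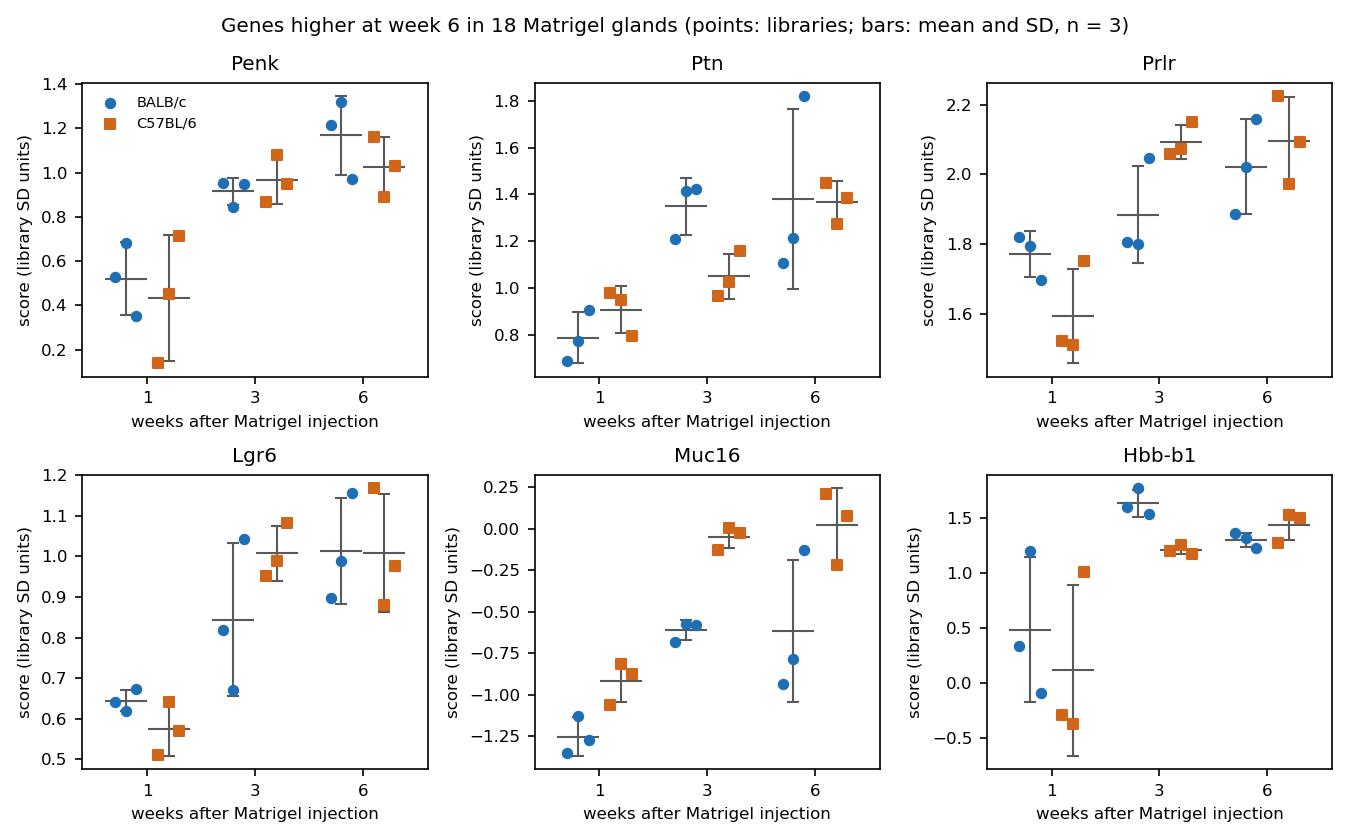
Score (y axis, SD units of the library) of 6 genes called as higher at week 6 in each Matrigel gland at weeks 1, 3 and 6 after injection (x axis). Circles are BALB/c and squares C57BL/6 libraries, and bars give the mean and SD of 3 libraries. Penk, Ptn, Prlr, Lgr6 and Hbb-b1 at week 6 lie above all week 1 glands, Muc16 overlaps, and Hbb-b1 at week 1 spreads from -0.37 to 1.21.

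The 4 largest rises of all called genes were globins. Of 6 measured erythroid genes 5 rose at week 6, beside 1.09% of all genes, with a median of 1.04. With glands averaged by antibody segments 0 of the 6 were called, and 0 without the 3 glands rich in keratinocyte genes. Hbb-b1, an adult beta globin, scored 0.34, 1.21 and -0.09 in BALB/c and -0.29, -0.37 and 1.02 in C57BL/6 at week 1, and 1.23 to 1.53 over the 6 glands of week 6. Thus 4 of the 6 week 1 glands were far lower and 2 were close to the later ones. The rise was 1.07 ± 0.23 units (limma adjusted p = 0.0252), and Hbb-b2, Hba-a1 and Hba-a2 rose by 1.04 to 1.05. Their calls were lost in 6 or 7 of 18 fits without 1 library: for Hbb-b1, without BALB/c week 1 replicates 1 or 3, C57BL/6 week 1 replicate 1, or any C57BL/6 gland of week 6. Hbb-b1 and Hbb-b2 are the names in the authors' table for the genes now called Hbb-bs and Hbb-bt. The paired globin genes are near-identical copies and the beta globin cluster differs between these strains, so the split between copies is uncertain. Alas2, the heme-making enzyme of red cells, ranged from -1.20 to -0.52 at week 1 and from -0.49 to -0.22 at week 6 and rose by 0.56 ± 0.11 (limma adjusted p = 0.0159), and its call held without any 1 library. The week 1 glands with high globins were BALB/c replicate 2 and C57BL/6 replicate 3, of which the first is also the gland highest in brown fat genes. What part the blood left in each gland has in these values was not tested. Erfe, the hormone erythroferrone, which erythroblasts and other tissues make, fell by 0.33 ± 0.05 units (limma adjusted p = 0.00577).

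Fat, vessels and most immune lists gave no calls at week 6 beyond those named. None of the 20 adipocyte genes and none of the 21 lipid synthesis genes was called, with medians of -0.01 and -0.06. Lep, leptin, differed by 0.12 ± 0.10 (limma adjusted p = 0.595) and Adipoq by 0.07 ± 0.09 (limma adjusted p = 0.762). None of the 14 endothelial genes was called, with a median of 0.00. Of 20 genes of T and NK cells 1 fell, the NK receptor Klrb1c (-0.25 ± 0.06, limma adjusted p = 0.0454), a call lost in 15 of 18 fits without 1 library.

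None was called among 20 macrophage genes (median -0.13), 12 neutrophil genes (median -0.20), 13 genes of MHC class II and dendritic cells (median -0.16), 12 B cell genes (median -0.01), 15 plasma cell genes (median -0.02), 10 mast cell and eosinophil genes (median 0.08) and 17 interferon response genes (median -0.06). All 12 neutrophil genes and all 13 of MHC class II had differences below 0. With the 3 glands rich in brown fat genes left out, 6 of the macrophage genes, 5 of the neutrophil genes, 5 of the MHC class II genes and 7 of the T and NK cell genes fell, as did 2 of the B cell and 2 of the plasma cell genes. No gene of these lists was called without the 3 glands rich in keratinocyte genes, or with glands averaged by antibody segments. Adgre1, a surface antigen of macrophages, gave -0.15 ± 0.11 (limma adjusted p = 0.542), and Jchain, the joining chain of secreted antibodies, -0.03 ± 0.25. Jchain was 0.40 in BALB/c week 1 replicate 2 and 1.73 to 2.37 in the other week 1 glands.

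The 16 proliferation genes all had differences below 0 at both later weeks, with medians of -0.30 at week 3 and -0.20 at week 6, and none was called. Mki67, the antigen Ki-67, ranged from 0.54 to 1.28 at week 1 and from 0.20 to 0.91 at week 6 (-0.18 ± 0.13, limma adjusted p = 0.547). Without the 3 glands rich in brown fat genes 13 of the 16 fell at week 6, and without the 3 rich in keratinocyte genes 0 did. The first of these fits leaves out replicate 2 of week 1 in both strains. Their list means were -0.03 in BALB/c and -0.06 in C57BL/6, below the 0.26 to 0.58 of the other week 1 glands. The lists of other tissues gave medians of 0.84 over 15 skeletal muscle genes and 0.43 over 13 keratinocyte genes with no call in either, of -0.10 over 13 brown fat genes, of 0.09 over 9 Schwann cell genes and of -0.02 over 5 lymph node genes. The 15 clock genes and the 12 immediate early genes had no call and medians of 0.04 and -0.01.

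**Figure D5:**
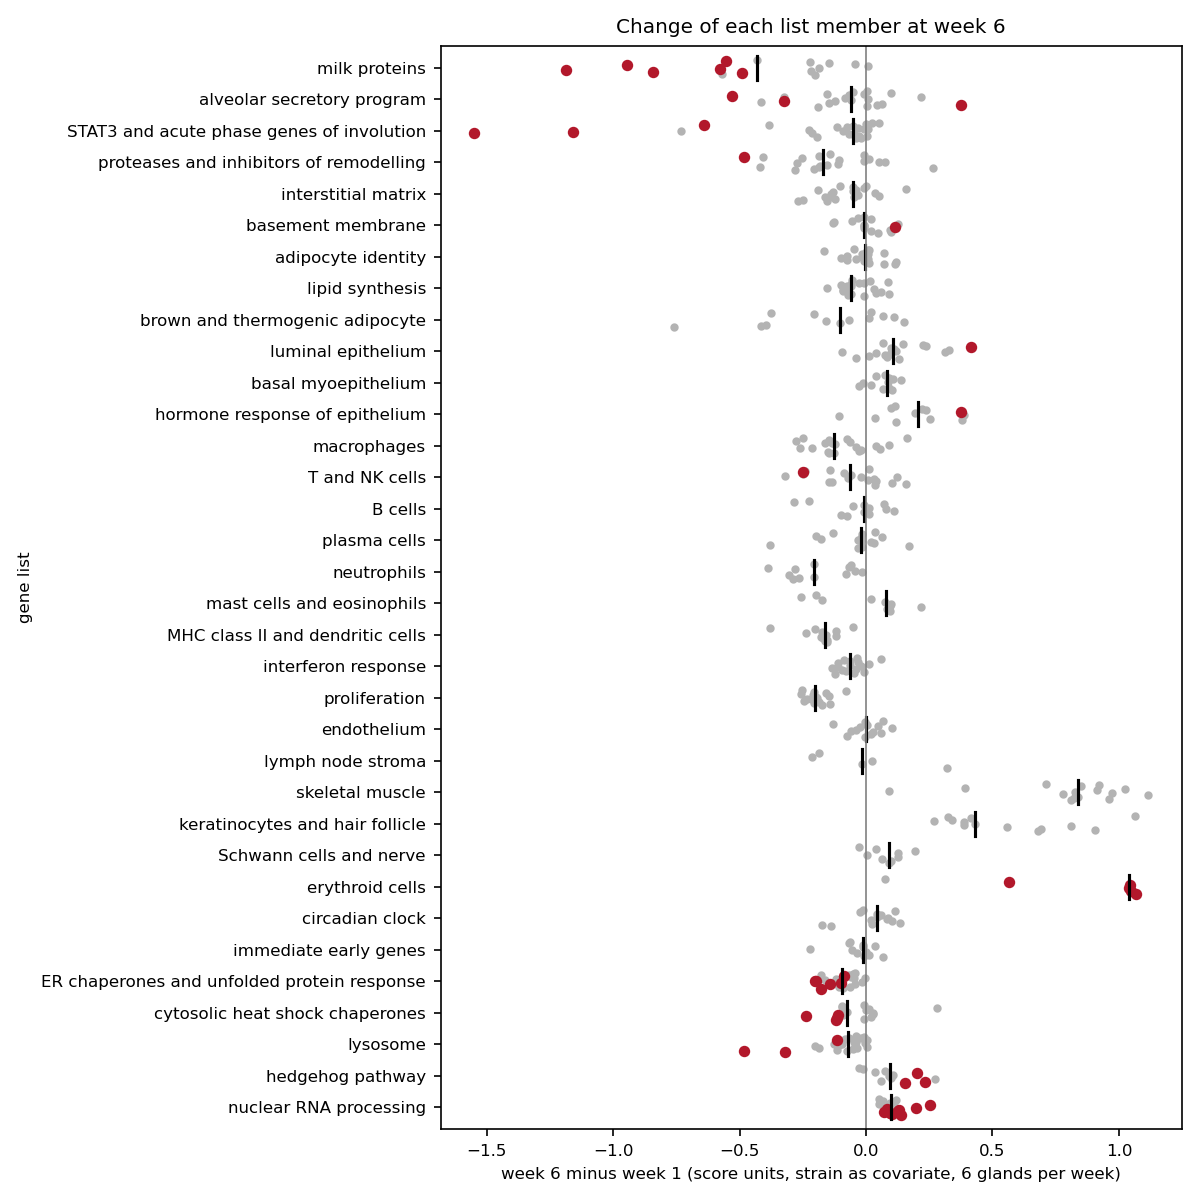
Difference of week 6 minus week 1 (x axis, score units, strain as covariate, 6 glands per week) for each measured member of 34 gene lists (y axis). Large red points passed the adjusted p threshold of 0.05, small grey points did not, and black bars are list medians. The last 5 lists, from chaperones of the endoplasmic reticulum down, were chosen after the values were seen. Called points lie furthest left among milk and acute phase genes and furthest right among erythroid genes.

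By week 3, 17 genes (0.0785% of 21650) differed from week 1, 9 higher (0.0416%) and 8 lower (0.0370%), and all 17 were also called at week 6. The 6 glands of week 3 did not overlap those of week 1 in 0.503% of all genes. The 2 comparisons share the week 1 glands. Lower were Saa1, Saa2, Wap, Lao1, Chrdl2, Muc4, Erfe and Gramd1b, and the higher genes included Muc16, Gm266, Alas2, Ntng1, Chrm1, AC138228.3, Ttc6 and Amotl2. With glands averaged by antibody segments no gene was called by limma, 1092 having an unadjusted p under 0.05, and all 17 kept their direction. Without the 3 glands rich in keratinocyte genes none was called either, and without those rich in brown fat genes 465 were, including all 17.

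Saa1, Gm266, Chrdl2 and Amotl2 kept their week 3 call in every fit without 1 library. Chrdl2, a secreted antagonist of BMP signalling, scored -0.51 to -0.08 at week 1, -0.95 to -0.64 at week 3 and -1.01 to -0.59 at week 6, with no overlap of either later week with week 1. It fell by 0.55 ± 0.07 units at week 3 (limma adjusted p = 0.00733) and 0.58 ± 0.07 at week 6. Amotl2, a junction protein of the Hippo pathway, rose by 0.18 at week 3 (limma adjusted p = 0.00733) and 0.12 at week 6. Its gain at week 6 overlapped week 1 and was lost without C57BL/6 week 1 replicate 1.

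A pair of membrane mucins moved in opposite directions. Muc16, the mucin that carries the CA125 antigen, ranged from -1.36 to -0.82 at week 1, -0.68 to 0.01 at week 3 and -0.94 to 0.21 at week 6. It rose by 0.76 ± 0.11 units at week 3 (limma adjusted p = 0.0157) and 0.79 ± 0.11 at week 6, about 4.79-fold. The week 3 call was lost without BALB/c week 3 replicate 3, C57BL/6 week 1 replicate 1 or C57BL/6 week 3 replicate 2. Muc4, a mucin of secretory epithelium, fell by 0.43 ± 0.08 at week 3 (limma adjusted p = 0.0408) and 0.31 ± 0.08 at week 6, calls lost in 13 and 15 of the 18 fits without 1 library. Ntng1, an axon guidance protein, rose by 0.38 ± 0.06 and 0.42 ± 0.06 at weeks 3 and 6, without overlap at either.

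No gene differed between weeks 6 and 3 at an adjusted p under 0.05 in limma, while 1678 had an unadjusted p under 0.05. For Saa1 the 6 glands of week 6 (-1.42 to -1.11) lay wholly below those of week 3 (-0.84 to -0.15), and for Wap the ranges met only between -1.20 and -1.06. In BALB/c Hbb-b1, which was higher at both later weeks than at week 1, scored 1.54 to 1.77 at week 3 and 1.23 to 1.36 at week 6.

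Within BALB/c, 26 genes (0.120%) were called at week 6, 8 higher (0.0370%) and 18 lower (0.0831%). In the C57BL/6 glands, which are separate libraries, all 26 went the same way and 23 of them had an unadjusted p under 0.05 in limma. Both strains were fitted with a common estimate of the spread, so the p-values of the strains are not independent. Whether C57BL/6 glands of a week share an animal was not tested. Over all genes 62.6% had the same direction in both strains and 8.63% also reached that p in C57BL/6. Saa1 (-1.64), Wap (-1.42), Saa2 (-1.31), Lao1 (-1.18) and Csn2 (-1.14) fell furthest in BALB/c. At week 3 a single gene was called in BALB/c (0.00462%), the gene model 1810065E05Rik, which fell by 0.34 units. In this comparison glands with the same replicate number deviated together, and with the replicate block 0 genes were called by limma, with 1417 at an unadjusted p under 0.05.

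Within C57BL/6, 56 genes (0.259%) were called at week 6, 44 higher (0.203%) and 12 lower (0.0554%), and 44 of the 56 had the same direction in BALB/c. Of the 56, 6 were immunoglobulin variable segments, all higher. Ighv5-12 was the furthest, with -1.08, -1.22 and -0.78 in the 3 glands of week 1 and 1.03, 1.26 and 1.17 at week 6. Of the other 50, 43 had the same direction in BALB/c. Of 6 genes called at week 3 (0.0277%), 5 were higher (0.0231%), and 2 of these were such segments, and the one that rose most scored -0.52, -1.25 and -1.22 at week 1 and 1.06, 1.12 and 1.04 at week 3. The 3 glands of a week were near each other in these segments, as in the segment correlations given above. With glands averaged, no gene was called by limma within either strain at either week, 281 to 1493 genes having an unadjusted p under 0.05.

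The change over time was not shown to differ between strains for any gene in limma, with 1140 genes at week 3 and 845 at week 6 at an unadjusted p under 0.05. At week 3 the genes with the smallest p were Zc3h6, Galnt15, Tmprss6 and Inmt. Inmt, a methyltransferase, changed by 0.37 in BALB/c and -0.17 in C57BL/6, a difference of 0.53 ± 0.12 (limma adjusted p = 0.546). At week 6 they were Ifngr2, Foxo1, Zc3h12c and H2-Q2. Ifngr2, a chain of the interferon gamma receptor, changed by -0.03 in BALB/c and -0.22 in C57BL/6, a difference of 0.20 ± 0.04 (limma adjusted p = 0.588).

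Against the tumors, 43.0% of all genes changed differently in the glands from week 1 to week 6, 14.1% higher and 28.9% lower in glands, and 257 of the 378 genes called over time in the glands were among them. With glands averaged by antibody segments 6899 genes differed at week 6. At week 3 the share of all genes that differed was 0.305%, with 0.0647% higher and 0.240% lower. With glands averaged 0 genes were called by limma at week 3, with 1744 at an unadjusted p under 0.05. Prlr rose in glands and its change exceeded that in tumors by 1.15 units (limma adjusted p = 1.92e-06), and for Penk the excess was 1.13 (limma adjusted p = 7.36e-06). The change of Csn2 was 1.94 units higher in glands than in tumors (limma adjusted p = 4.24e-08), although it fell in glands. For Wap the changes differed by 0.04 and did not pass (limma adjusted p = 0.867), nor did those of Saa1 (limma adjusted p = 0.995).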

How the data were processed

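RNA sequencing of 36 libraries was deposited by the authors as 1 table, of which the 18 Matrigel glands are described. The authors aligned stranded TruSeq reads (75-base pairs) to mm10 with STAR, counted them per gene with summariseOverlaps and normalized them with DESeq2. Versions and annotation are not given in the sources used here. The deposited values are scores, the 21650 genes of each library being centred on 0 and scaled to unit SD. They are not counts, so a count test was not possible, depth is unknown and no counting interval can be given. The authors' mean normalized count served only to gauge the scale. The authors' own fold changes and p-values were not used.

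Differences were fitted with limma 3.58.1 (R 4.3.3; trend, robust), strain as covariate, in the 18 glands, with Benjamini-Hochberg adjustment over all genes. Within-strain changes and the strain difference came from a group-mean fit, and the comparison with tumors from all 36 libraries. No low-value filter was applied. The scripts were tested on simulated data. Symbols came from the authors' table for 16266 genes and from a reference table of gene names for 5384. Promoters came from RefSeq.

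The members and lists were chosen with earlier results of these data known. Named genes were the 12 largest rises and 12 largest falls per week among called genes without overlap, with a mean score above the median gene, no predicted models and at most 2 immunoglobulin segments. Added to these were up to 4 genes per list by smallest p, 4 per strain difference, and Csn2, Wap, Lalba, Adipoq, Lep, Krt8, Krt14, Adgre1, Jchain and Mki67. All other genes, including the week 3 calls, called list members and the 5 later lists, were named after their values were seen. The alternatives tried were other scalings, an expression filter, other sample sets, each library left out, a replicate block and, chosen after seeing the data, 4 alternatives for admixed tissue and shared antibody segments. Some genes are not reported here. The main fits did not pair glands, and only the replicate block did. Among the comparisons of weeks within a strain, same-numbered glands deviated together only between BALB/c weeks 1 and 3. There all 3 correlations of their deviations (0.15, 0.68 and 0.70) exceeded 0.1.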

Additional observations from a re-analysis of the deposited data

Results flagged for a closer look

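Among 216 groups of 6 glands (the 43 genes named by rule and the means of 29 lists, at each week), 15 had 1 gland set apart from the other 5 by a gap above Dixon's critical value. Chance sets apart about 5 in 100 such groups, and 15 of 216 is not far from that share. The groups hold glands of both strains and reuse the same libraries, so the flags are given as values only. BALB/c week 1 replicate 2, the gland highest in brown fat genes, was lowest of its week in Lep (0.4831), Jchain (0.3989) and the interstitial matrix list (1.583). BALB/c week 3 replicate 2 was highest of its week in the brown fat list (0.3769) and lowest in the lists of proteases (0.7816), interstitial matrix (1.594) and basement membrane (1.424). The keratinocyte list was highest in BALB/c week 1 replicate 3 (-0.6804) and in C57BL/6 week 3 replicate 3 (-0.2735) of their weeks, and the lymph node list in C57BL/6 week 3 replicate 1 (-1.047). Stc2 was high in BALB/c week 6 replicate 3 (1.696), Mki67 low in the same gland (0.198), Banp low in BALB/c week 3 replicate 1 (0.2273), Inmt low in C57BL/6 week 3 replicate 1 (0.3216) and Cyth1 low in C57BL/6 week 6 replicate 1 (0.7141).

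For 3 flagged genes the later BALB/c glands differed from week 1 in one direction and the later C57BL/6 glands in the other. For these genes limma's test of the difference did not pass. Inmt at week 3, given above, also changed in opposite directions and was not flagged. The glands of different weeks are different libraries. These genes were named for their small p in this same comparison, so the pattern describes and supports nothing. The change in BALB/c minus that in C57BL/6 was 0.2209 for Zc3h6 at week 3 (limma adjusted p = 0.422), and -0.2013 for Foxo1 and 0.1849 for Zc3h12c at week 6 (limma adjusted p = 0.588 for both).

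Of the genes named by rule, 26 differences between the change in glands and that in tumors passed limma's test, beside 0.305% of all genes at week 3 and 43.0% at week 6. Many of these genes were named for their change in the same glands, so this count describes and supports nothing. At week 3 the change in glands minus that in tumors was below 0 for Gramd1b (-0.2872), Banp (-0.2521) and Dnaja1 (-0.1714). At week 6 it was above 0 for Csn2 (1.943), Adipoq (1.749), Jchain (1.554), Lep (1.546), Inmt (1.203), Prlr (1.148), Penk (1.134), Ptn (1.066), Krt14 (0.8446), Ntng1 (0.8258), Stc2 (0.7703), Lalba (0.7093), Galnt15 (0.6013) and Zc3h6 (0.2847). It was below 0 at week 6 for Smox (-0.6075), Mki67 (-0.5378), Banp (-0.4074), Bak1 (-0.2798), Dnaja1 (-0.2419), Lrrc59 (-0.2284), Krt8 (-0.1996), Rhob (-0.1982) and Isyna1 (-0.1538). Adipoq, Lep, Jchain, Krt14, Krt8 and Mki67 were not called over time in the glands themselves. For them a difference from the tumors does not show a change in the glands.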

How the results depend on the processing

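Among the gene values that were recomputed, none called in one direction was called in the other. Of 4653 recomputed gene values 4327 stayed on their side of the threshold, 233 lost and 93 gained a call. Values that were not called can change sign. The median of the 12 basal markers at week 6 was 0.08, and -0.02 without the 3 glands rich in brown fat genes. The counts of calls moved far more, and except where fewer samples or genes entered by construction the cause was not tested.

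At week 3 against week 1 (17 calls) there were 26 with median and interquartile rescaling, 2 among the genes above the median score, 33 with all 36 libraries, 7 with only the 12 libraries compared, 465 without the 3 glands highest in brown fat genes, 0 without the 3 highest in keratinocyte genes, 50 with the muscle score as covariate and 0 with glands averaged by antibody segments. At week 6 (378 calls) the genes above the median score gave 229, all 36 libraries 180, the 12 libraries 119, and the glands left out for brown fat 2547, for keratinocyte genes 75, and averaged 15. Between weeks 6 and 3 (0 calls, 1678 at an unadjusted p under 0.05 in limma), cyclic loess gave 3, the fit without trend 1 and all 36 libraries 5.

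Within BALB/c at week 3 (1 call) the higher-scoring genes gave 0, all 36 libraries 3, without brown fat 35, without keratinocyte 0, muscle 8 and averaging 0. At week 6 (26 calls) the higher-scoring genes gave 7, without brown fat 1146, without keratinocyte 0 and averaging 0. Within C57BL/6 at week 3 (6 calls) loess gave 12, the higher-scoring genes 0, all 36 libraries 28, without brown fat 111, without keratinocyte 0, muscle 85 and averaging 0. At week 6 (56 calls) rescaling gave 88, loess 115, the higher-scoring genes 33, without brown fat 220, without keratinocyte 0, muscle 149 and averaging 0. The strain difference at week 6 (0 calls, 845 at an unadjusted p under 0.05 in limma) gave 3 with all 36 libraries, 3 without brown fat and 3 with muscle. Gland minus tumor at week 3 (66 calls) gave 143 with loess, 27 among the genes above the median score, 11 without brown fat, 6 without keratinocyte, 118 with muscle and 0 with averaging, and at week 6 (9313 calls) 5052 with the genes above the median score.

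Leaving out 1 library gave 4 (without C57BL/6 week 1 replicate 1) to 78 calls (without BALB/c week 1 replicate 2) at week 3, and 185 to 592 at week 6 without the same libraries. Between weeks 6 and 3 it gave 0 to 2. Within BALB/c it gave 0 to 21 at week 3 and 3 (without week 6 replicate 2) to 207 (without week 1 replicate 2) at week 6. Within C57BL/6 it gave 0 (without week 3 replicate 2) to 54 (without week 1 replicate 3) at week 3 and 13 (without week 1 replicate 1) to 86 (without week 1 replicate 3) at week 6. The strain difference gave 0 to 5 and 0 to 4, and gland minus tumor 31 to 889 and 8480 to 9390.

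The labels do not say what a replicate number shares. Over all groups 26 of 45 pairs of glands with the same number had deviations correlated above 0.1, with a range of -0.43 to 0.79. All 3 pairs were above 0.1 between BALB/c weeks 1 and 3 (0.15, 0.68 and 0.70) and between the strains at week 1 (0.41, 0.79 and 0.56). The same held between C57BL/6 week 1 and BALB/c week 3 (0.13, 0.56 and 0.57) and between C57BL/6 week 1 and BALB/c week 6 (0.19, 0.24 and 0.16). The 3 glands rich in brown fat genes are all replicate 2. With the replicate block there were 19 calls at week 3 and 443 at week 6, 0 in BALB/c and 10 in C57BL/6 at week 3. Depth is unknown and limits what small differences can show.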

Other observations

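Further genes outside the lists were called at week 6 and are given as values, chosen after they were seen. Adam12, a membrane metalloprotease, fell by 0.29 ± 0.06 units (limma adjusted p = 0.0188), a call lost without C57BL/6 replicate 1 of week 1 or of week 6. Cxcr4, a chemokine receptor, fell by 0.30 ± 0.06 (limma adjusted p = 0.0208), and Ptgs2, the inducible cyclooxygenase, by 0.44 ± 0.11 (limma adjusted p = 0.0466), calls lost in 3 and 10 of 18 fits without 1 library. Trpc6, a cation channel, ranged from -0.93 to -0.61 at week 1 and from -0.35 to 0.10 at week 6, and rose by 0.52 ± 0.08 (limma adjusted p = 0.0046). Chrm1, a muscarinic acetylcholine receptor, rose by 0.42 ± 0.05 (limma adjusted p = 0.00166). Slc12a2, an ion cotransporter of secretory epithelia, rose by 0.46 ± 0.10 (limma adjusted p = 0.025), a call lost in 5 of 18 fits without 1 library. None of these apart from Chrm1 passed with glands averaged by antibody segments.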
